A study of Mus musculus with 24 samples.

Results

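The tumour necrosis factor (TNF) superfamily is a set of small trimeric ligands, most of them anchored in the cell membrane, and the matching superfamily of receptors with cysteine-rich extracellular repeats. Its genes were chosen by name, as 18 ligands and 27 receptors, and all 45 symbols matched an Ensembl gene among the 41388 mouse genes of the count table. The RNA came from pieces of 24 hearts of wild-type male Balb/c mice (BALB/cAnNCrl), 4 with experimental autoimmune myocarditis (EAM) and 4 controls on each of D10, D15 and D21 after the start of immunization. EAM mice were given a peptide of the cardiac myosin heavy chain in SCFA adjuvant on days 0 and 7 with pertussis toxin on day 0. Control mice received the adjuvant and the toxin as well, with PBS in place of the peptide, so every heart came from an animal given both. Inflamed tissue was preferred when EAM hearts were picked for sequencing, so they do not stand for all immunized animals. The 4 EAM hearts of D21 carry a different library code from the other 20 libraries, and at D21 that code and the disease cannot be told apart.

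Ligand binding gathers these receptors into trimers. Receptors with a cytoplasmic death domain, such as Tnfrsf1a and Fas, can recruit caspases and kinases of the cell death machinery, while the others recruit TRAF adaptors and activate NF-kappaB and MAP kinases. A large share of the family serves lymphocytes: Cd27, Tnfrsf4 (OX40), Tnfrsf9 (4-1BB), Tnfrsf18 (GITR) and Cd40 carry costimulatory signals, and Tnfsf13b (BAFF) keeps B cells alive. A smaller branch, made up of Eda, Edar, Eda2r, Tnfrsf19 and Ngfr, is known mainly from skin appendages and nerve. In the inflamed heart TNF is known both as a product of macrophages and as a factor that depresses contraction.

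Of the 45 genes, 22 lay in 9 clusters of neighbours with gaps of at most 200 kb. One of these holds Ltb, Tnf and Lta within 10.9 kb of chromosome 17 (GRCm38), and all 3 of its genes rose at D15. The promoters of Tnf and Lta are shown for that reason, beside those of Tnfsf11 and Tnfsf14, ligands with large increases, and of Edar, which fell. Each run is the 250 bases upstream of the RefSeq start (GRCm38.p6), written 5′ to 3′ on the gene's strand, and capitals mark matches on either strand to the kappaB-type motif GGGNNNNNCC, with overlapping matches merged. The windows were chr17:35202008-35202257 for Tnf, chr17:35205352-35205601 for Lta, chr14:78308044-78308293 for Tnfsf11, chr17:57194182-57194431 for Tnfsf14 and chr10:58675697-58675946 for Edar, all on the minus strand.
Tnf: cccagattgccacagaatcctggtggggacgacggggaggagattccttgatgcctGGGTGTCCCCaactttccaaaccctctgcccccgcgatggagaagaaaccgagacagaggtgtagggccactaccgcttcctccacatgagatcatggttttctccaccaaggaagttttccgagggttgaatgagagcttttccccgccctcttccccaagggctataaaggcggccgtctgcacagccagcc
Lta: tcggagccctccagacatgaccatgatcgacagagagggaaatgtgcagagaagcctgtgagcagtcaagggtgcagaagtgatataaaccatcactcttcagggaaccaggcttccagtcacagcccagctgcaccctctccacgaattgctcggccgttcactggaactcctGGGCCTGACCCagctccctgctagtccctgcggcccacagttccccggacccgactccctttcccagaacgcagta
Tnfsf11: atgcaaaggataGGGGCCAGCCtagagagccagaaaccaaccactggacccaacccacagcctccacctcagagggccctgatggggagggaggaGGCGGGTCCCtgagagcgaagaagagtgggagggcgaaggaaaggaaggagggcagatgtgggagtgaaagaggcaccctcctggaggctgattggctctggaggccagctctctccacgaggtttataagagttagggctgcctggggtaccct
Tnfsf14: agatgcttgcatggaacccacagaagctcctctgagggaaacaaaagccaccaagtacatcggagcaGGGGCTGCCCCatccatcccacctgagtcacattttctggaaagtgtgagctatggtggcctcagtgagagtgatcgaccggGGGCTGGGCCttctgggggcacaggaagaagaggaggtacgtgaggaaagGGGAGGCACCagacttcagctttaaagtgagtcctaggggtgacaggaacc
Edar: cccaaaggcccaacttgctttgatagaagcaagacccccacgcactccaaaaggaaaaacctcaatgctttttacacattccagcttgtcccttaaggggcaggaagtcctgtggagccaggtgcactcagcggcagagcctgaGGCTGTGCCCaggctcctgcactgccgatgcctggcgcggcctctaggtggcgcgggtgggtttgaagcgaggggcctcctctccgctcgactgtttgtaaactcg

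The RefSeq table held 39 promoters of 35 members. A kappaB-type match lay in 66.7% of these 39 windows and in 45.8% of the 32851 windows of the same length in the table. Among members it lay in 65.4% of the 26 windows of genes that rose at D15 and in 69.2% of the other 13. A second motif searched on both strands, the GAS-type TTCNNNGAA, lay in 26.9% of the 26 windows and in 7.69% of the other 13, against 7.02% of all windows. A match is a string of letters and was not tested as a binding site.

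In control hearts the receptors were the more abundant side of the family. Levels are given as CPM (counts scaled to library size by TMM over all 24 libraries) and, between genes, as RPKM, which also divides by exon length. The 24 libraries held 15814863 to 24980864 counted reads each, so that 3 reads corresponded to 0.12 to 0.19 CPM. Over the 12 control hearts, 19 of 27 receptors and 6 of 18 ligands averaged at least 1 CPM, and 10 ligands averaged under 0.5 CPM. Tnfrsf12a (Fn14), the receptor of the TWEAK ligand Tnfsf12, was the highest member at 32.9 ± 5.56 RPKM (SD, n = 12 hearts). It was followed by Tnfrsf1a, the main TNF receptor, at 31.3 ± 4.63 RPKM, a difference within the spread. Ltbr, the lymphotoxin beta receptor, was next at 20.5 ± 1.16 RPKM.

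Of the ligands, 2 averaged at least 10 CPM in control hearts, Tnfsf12 at 12.1 ± 0.827 RPKM and Tnfsf10 (TRAIL), an inducer of apoptosis, at 8.05 ± 1.09 RPKM. Tnf itself averaged 1.04 ± 0.271 RPKM, close to Ltb at 1.18 ± 0.330 RPKM, and to Eda (ectodysplasin) at 1.17 ± 0.189 RPKM, and their ranges overlapped. Cd40lg, the T cell ligand of Cd40, had 0 reads in 7 of the 12 controls, Fasl in 6, Tnfsf4 in 10 and Cd70 in 12. Between control days no member passed both limits used for a call, an FDR under 0.01 and a change of 2-fold or more. For D15 against D10, edgeR's quasi-likelihood test called 0 of 30 members, and 0.0% of all genes higher and 0.0% lower. At an unadjusted p under 0.05, 2 members were higher and 4 lower, as were 8.21% and 8.27% of all genes. For D21 against D10 it called 0 of 29 members, against 0.77% of all genes higher and 0.292% lower. At the unadjusted p, 5 members were higher and 3 lower, as were 14.7% and 12.1% of all genes. DESeq2, limma-voom and edgeR's likelihood ratio test also called 0 in both.

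**Figure D1:**
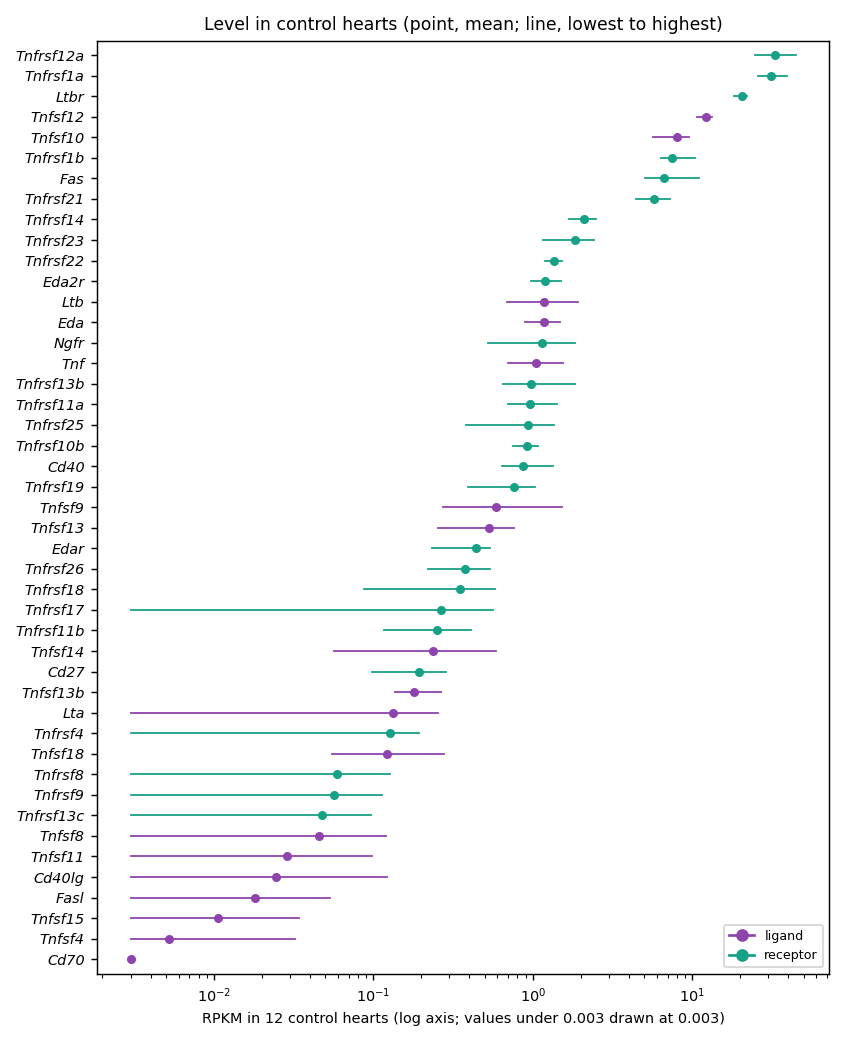
Level of each of the 45 members in the 12 control hearts, in RPKM on a log axis, with points for means and lines from the lowest to the highest heart, ligands in purple and receptors in green. Tnfrsf12a and Tnfrsf1a lead at 32.9 and 31.3 RPKM, and most ligands lie below 1 RPKM.

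At D10 the question was whether the family had moved before overt infiltration. No member was called at D10 by edgeR's quasi-likelihood test, of 30 tested, and none of all 15029 genes was (0.0% higher, 0.0% lower). At an unadjusted p under 0.05, 9 members were higher and 1 was lower, where 9.49% of all genes were higher and 5.67% lower, and the median log2 fold change was 0.43 over the 30 members and -0.01 over all genes. The count at that p depended on single hearts and on the test, with 4 to 13 higher when 1 library was left out and 3 higher and 1 lower in limma-voom (5.78% and 6.67% of all genes). Without EAM heart 1, 4 members were higher and 2 lower (6.25% and 4.97% of all genes), without control heart 4, 4 and 1 (4.14% and 2.87%), and without control heart 2, 5 and 0 (5.31% and 3.12%). DESeq2, limma-voom and the likelihood ratio test also called 0 members. With all 12 control hearts in place of the 4 of D10, 8 members were called higher, namely Tnf, Ltb, Tnfsf14, Tnfsf18, Tnfrsf1b, Cd40, Fas and Tnfrsf14, while 4.09% of all genes were called higher and 0.335% lower under this choice.

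EAM hearts 1 and 3 stood highest at D10. EAM heart 1 of D10 was the highest of the 4 for all 30 members that rose at D15, as it was for 34.3% of 15155 genes averaging 0.5 CPM or more. It lay above all 4 controls of the day for all 30, as it did for 37.7% of those genes. EAM heart 3 lay above all 4 controls for 20 of the 30 (34.3% of those genes), heart 2 for 9 (25.8%) and heart 4 for 6 (21.2%). Tnf stood at 14.7, 2.72, 2.84 and 1.37 CPM in EAM hearts 1 to 4, against 2.51, 1.69, 1.24 and 1.26 CPM in the controls. Ltb, the membrane-bound partner of lymphotoxin alpha, stood at 51.5, 2.78, 12.2 and 3.32 CPM against 2.91, 2.30, 1.63 and 1.65 CPM. Heart 1 was thus far above the rest for both, heart 3 was above every control for both, and EAM heart 4 lay within the controls for Tnf. Ptprc, the pan-leucocyte gene CD45, was at 194 CPM in heart 1 and at 27.7, 56.7 and 41.6 CPM in the other 3, against 23.9 to 38.6 CPM in controls. The summed T cell markers (8 genes) ran from 4.70 to 38.3 CPM in these EAM hearts and from 3.31 to 6.28 CPM in controls. Heart 1 was also the highest for summed monocyte and macrophage markers, at 2884 CPM against 526 to 1145 CPM in controls, for neutrophil markers, at 749 against 112 to 210 CPM, and for NK cell markers, at 20.3 against 0.562 to 1.83 CPM. Its cardiomyocyte markers were the lowest, at 14459 CPM against 22906 to 27876 CPM, and so were its endothelial markers, at 701 CPM against 1010 to 1080 CPM. The part of these cell types in the member values was not tested.

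At D15 the family rose broadly. Of 41 members tested, 30 were called higher and 2 lower, while 18.1% of all 15693 genes tested were called higher and 12.9% lower. The 30 were 13 of 18 ligands and 17 of 27 receptors, and the 2 lower were the receptors Tnfrsf19 and Edar. The 4 EAM hearts lay above the 4 controls without overlap for 32 members, as they did for 36.2% of all genes. Of the 41, 10 had under 10 reads in every control and passed the filter only through the EAM hearts, so they had to differ. Of the other 31, 20 were called higher and 2 lower, and their median log2 fold change was 1.72, against 0.02 over all genes tested. The 4 members not tested were Cd70, Tnfsf4, Tnfrsf13c and Tnfrsf17, with at most 7, 16, 25 and 5 reads in any library of D15.

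**Figure D2:**
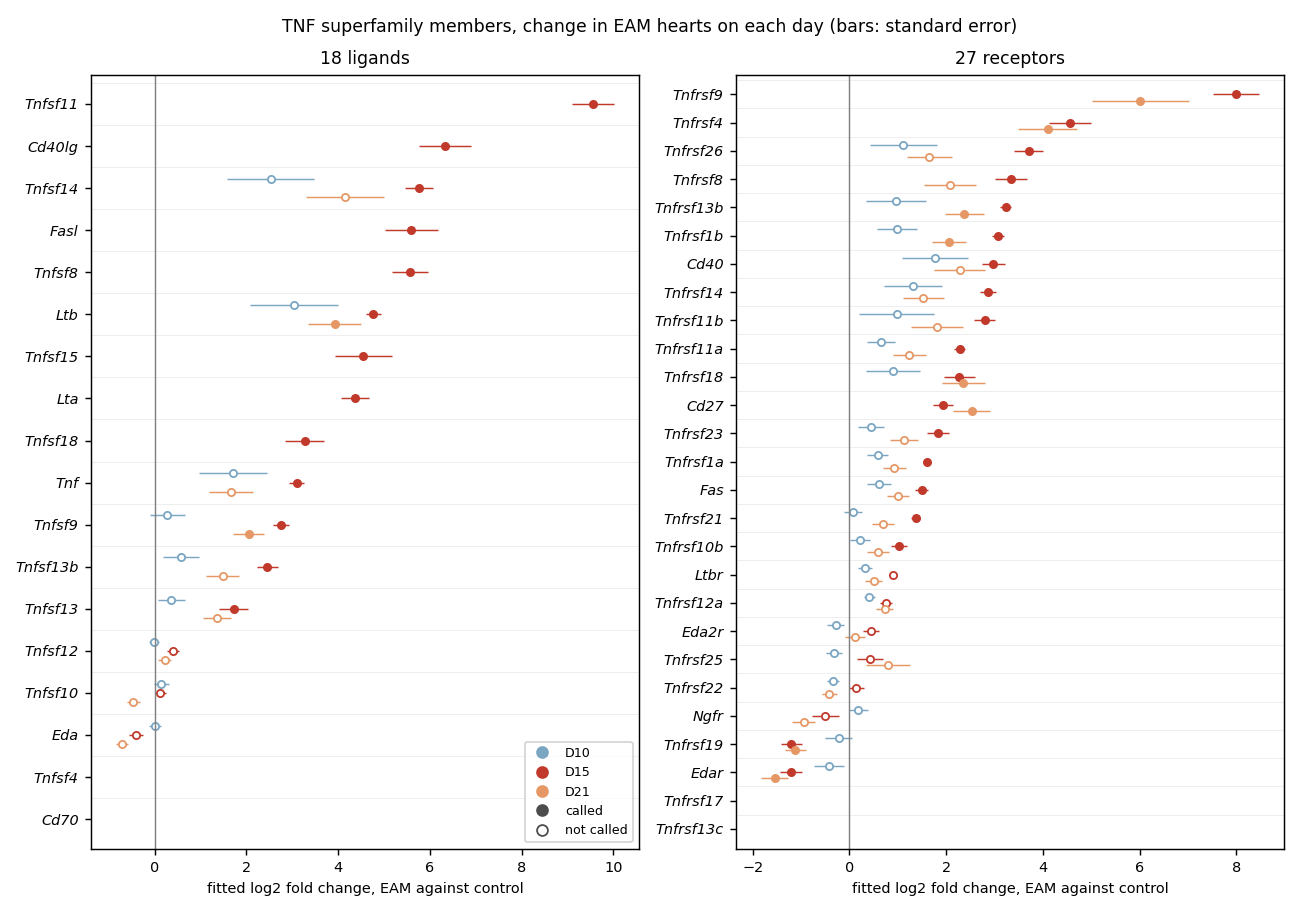
Fitted log2 fold change of EAM against control for the 18 ligands and 27 receptors on each day, with bars of 1 standard error, filled where called (FDR under 0.01 and at least 2-fold). D15 values reach 9.56 for Tnfsf11 and 8.0 for Tnfrsf9, and Tnfrsf19 and Edar lie below 0. Tnfsf11 and Tnfrsf9 had under 10 reads in every control, so their fitted values depend on the prior count.

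The founding ligands rose together. Tnf, the macrophage cytokine, stood at 13.7, 11.2, 15.0 and 12.8 CPM in the EAM hearts and at 1.88, 1.77, 1.14 and 1.53 CPM in controls at D15, with a log2 fold change of 3.09 ± 0.16 (SE; adjusted p = 3.5e-07). Lta stood at 3.95, 4.13, 3.0 and 4.86 CPM against 0.313, 0.236, 0.104 and 0.118 CPM (log2 fold change 4.37 ± 0.30). Ltb stood at 39.4, 36.1, 40.8 and 36.3 CPM against 1.04, 1.53, 1.92 and 1.24 CPM (4.76 ± 0.16 on the log2 scale). The groups did not overlap for any of the 3. Lta had under 10 reads in every control.

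Of their receptors, both TNF receptors were called and the lymphotoxin beta receptor was not. Tnfrsf1a, which carries a death domain and is found on most cells, stood at 210, 229, 224 and 211 CPM against 76.8, 71.2, 76.5 and 71.2 CPM, a log2 fold change of 1.60 ± 0.06. Tnfrsf1b, the second TNF receptor, held mainly by leucocytes and endothelium, stood at 232, 235, 159 and 210 CPM against 25.1, 25.5, 25.7 and 25.5 CPM (3.08 ± 0.13). Ltbr, the receptor on stromal and myeloid cells for Lta with Ltb and for Tnfsf14, stood at 84.3, 90.3, 79.7 and 82.3 CPM against 44.9, 46.9, 45.3 and 49.0 CPM. Its groups did not overlap, and its log2 fold change of 0.89 ± 0.06 passed the FDR limit but not the 2-fold limit. With total counts in place of TMM, Ltbr was called.

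**Figure D3:**
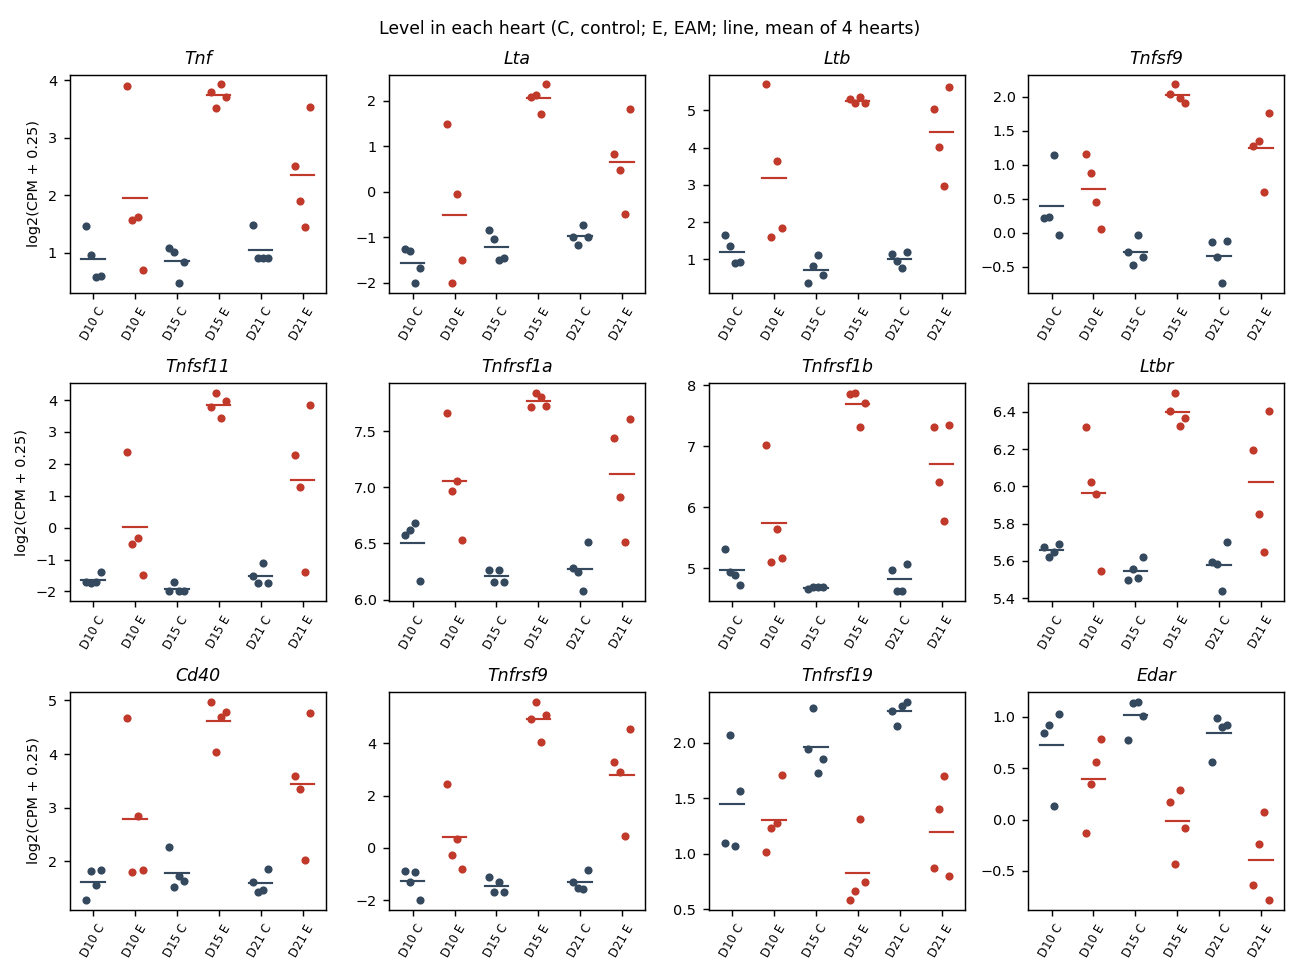
Level of 12 members in each heart as log2(CPM + 0.25), control hearts in dark blue and EAM hearts in red, with the mean of each group of 4 as a line. EAM heart 1 of D10 stands above the other 3 for Tnf, Ltb and Tnfsf11, the 4 EAM hearts of D15 lie close together, and those of D21 spread out.

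The 7 listed costimulatory receptors of lymphocytes were all called higher at D15, beside 18.1% of all 15693 genes higher and 12.9% lower. Of these, Tnfrsf4, Tnfrsf8 and Tnfrsf9 had under 10 reads in every control and passed the filter only through the EAM hearts, so they had to differ, and the other 4 had more reads. The largest change was that of Tnfrsf9, a marker of recently activated T cells, at 30.5, 48.3, 16.4 and 34.0 CPM against 0.208, 0.059, 0.155 and 0.0589 CPM in controls. Tnfrsf4 stood at 3.95, 2.31, 2.78 and 4.17 CPM against 0, 0.236, 0.155 and 0.177 CPM. Tnfrsf18 stood at 3.95, 2.77, 2.11 and 3.74 CPM against 0.365, 0.885, 0.880 and 0.530 CPM. For all 3 the EAM hearts lay clear of the controls. Cd27, held by naive and memory T cells, stood at 2.12, 1.65, 2.24 and 2.28 CPM against 0.521, 0.649, 0.414 and 0.648 CPM (1.93 ± 0.21 on the log2 scale), a smaller step than that of Tnfrsf9. Cd40, through which T cells license antigen-presenting cells, stood at 31.3, 16.3, 25.6 and 27.3 CPM against 4.58, 2.60, 3.05 and 2.83 CPM (2.97 ± 0.24). Tnfrsf8 (CD30) and Tnfrsf14 (HVEM) were also called.

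Tnfsf11, Cd40lg, Fasl, Tnfsf15, Tnfsf4 and Cd70 were near the detection floor in controls, so their changes are given as ratios of scaled reads with 95% counting intervals. Tnfsf11 (RANKL), the ligand that drives osteoclast differentiation, had 1495 reads in the 4 EAM hearts and 1 in the 4 controls of D15, a ratio of 1059 (interval 190 to 41869). Its levels were 13.4, 18.4, 10.6 and 15.4 CPM against 0, 0.059, 0 and 0 CPM. Cd40lg had 155 reads against 1, a ratio of 110 (19.4 to 4366), at 2.0, 1.26, 1.43 and 1.43 CPM against 0.0521, 0, 0 and 0 CPM. Neither overlapped between groups. Fasl, which triggers apoptosis through Fas, had 160 reads against 2, a ratio of 56.7 (15.4 to 472), at 1.79, 1.44, 1.39 and 1.66 CPM against 0.104, 0, 0 and 0 CPM. Tnfsf15 (TL1A) had 77 reads against 2, a ratio of 27.3 (7.30 to 229). Tnfsf4, the ligand of Tnfrsf4, was too low for the test, with 50 reads against 1 (ratio 35.4, 6.07 to 1427). Cd70, the ligand of Cd27, had 10 reads (0, 1, 2 and 7 in EAM hearts 1 to 4) against 0. That is 2.36-fold higher when set against 3 reads over the control group, a figure without a counting interval. These intervals cover counting error only, and the fitted fold changes of such genes depend on the prior count.

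The remaining ligands given by heart were Tnfsf14, Tnfsf8, Tnfsf9 and Tnfsf13b, of which Tnfsf14 and Tnfsf8 had under 10 reads in every control and, as given above, had to differ to be tested. Tnfsf14 (LIGHT) stood at 12.2, 18.8, 12.4 and 10.6 CPM against 0.104, 0.354, 0.207 and 0.353 CPM. Tnfsf8 (CD30 ligand) stood at 6.86, 3.92, 4.64 and 6.13 CPM against 0.156, 0, 0.155 and 0.118 CPM. Tnfsf9 (4-1BB ligand), made by antigen-presenting cells, stood at 3.87, 4.27, 3.67 and 3.51 CPM against 0.573, 0.472, 0.725 and 0.530 CPM, a log2 fold change of 2.75 ± 0.17. Tnfsf13b stood at 7.28, 6.65, 4.35 and 7.37 CPM against 1.2, 0.945, 1.09 and 1.59 CPM (2.45 ± 0.23), and its receptor Tnfrsf13b (TACI) at 25.3, 20.5, 18.8 and 22.8 CPM against 2.40, 2.42, 2.28 and 2.47 CPM (3.23 ± 0.12). Both Tnfsf13b and Tnfrsf13b were called. The other B cell receptors for this ligand, Tnfrsf13c and Tnfrsf17, were not tested for want of reads, and the summed B cell markers (5 genes) overlapped between groups, at 2.02 to 12 CPM in EAM and 0.824 to 2.19 CPM in control hearts, with 0 of 3 tested markers called.

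Among death domain receptors, 4 of 7 were called higher at D15 and 1 lower, beside 18.1% of all 15693 genes higher and 12.9% lower. Fas stood at 36.0, 32.2, 37.8 and 28.1 CPM against 10.8, 11.4, 11.4 and 15.4 CPM, a log2 fold change of 1.49 ± 0.14 without overlap. Tnfrsf21 (DR6) stood at 60.5, 57.4, 47.8 and 61.9 CPM against 22.9, 21.6, 21.3 and 24.4 CPM (1.37 ± 0.09). Tnfrsf10b, the mouse TRAIL receptor, passed narrowly with a log2 fold change of 1.02 ± 0.17, and it was not called, among other alternatives, by limma-voom, with all 12 controls, in the fit of all 24 libraries or without EAM heart 1, 2 or 4 of D15. Tnfrsf25 and Ngfr were not called, and Edar fell. Tnfrsf11a (RANK), the receptor of Tnfsf11, is no death domain receptor and stood at 24.7, 22.2, 20.6 and 26.1 CPM against 4.58, 5.31, 4.61 and 5.36 CPM (2.28 ± 0.11).

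Edar and Tnfrsf19 were the members that fell. Edar, the receptor of ectodysplasin, stood at 0.874, 0.490, 0.970 and 0.694 CPM in EAM and 1.46, 1.95, 1.97 and 1.77 CPM in control hearts at D15. Tnfrsf19 (TROY) stood at 1.25, 1.33, 2.24 and 1.43 CPM against 3.59, 4.72, 3.05 and 3.36 CPM. Neither overlapped, and the log2 fold changes were -1.21 ± 0.23 and -1.20 ± 0.22. Summed cardiomyocyte markers (6 genes) also fell, from 21845 to 26029 CPM in controls to 6007 to 15838 CPM in EAM hearts, with 3 of 6 called lower; their part in these decreases was not tested. Apart from Edar and Tnfrsf19, 9 members tested at D15 were not called, namely Tnfsf10, Tnfsf12, Eda, Ltbr, Tnfrsf12a, Tnfrsf22, Tnfrsf25, Eda2r and Ngfr. Of the 4 members highest by RPKM in control hearts, Tnfrsf1a was called and Tnfrsf12a, Ltbr and Tnfsf12 were not.

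Genes acting downstream of these receptors were followed as a list of 28. At D15, 15 of the 28 were called higher and 0 lower, beside 18.1% of all genes higher and 12.9% lower. The largest were Traf1, an adaptor of Tnfrsf1b and an NF-kappaB target, with a log2 fold change of 3.67 ± 0.18, and Ripk3, the necroptosis kinase, with 2.83 ± 0.13. Tnfaip3 (A20), which restrains NF-kappaB, followed with 2.48 ± 0.15, the ubiquitin ligase Birc3 with 2.29 ± 0.09, and Mlkl, the effector of necroptosis, with 2.08 ± 0.08. At D10, 0 of the 28 were called, with 5 higher and 0 lower at an unadjusted p under 0.05, as were 9.49% and 5.67% of all genes.

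The number of members called at D15 lay between 31 and 34 in every alternative tried, with 31 to 33 when single libraries were left out. Markers of leucocytes and of other cell types moved with the members. At D15, Ptprc stood at 243 to 305 CPM against 16.5 to 20.7 CPM, the T cell markers at 59.7 to 86.0 CPM against 2.65 to 4.01 CPM, the 8 monocyte and macrophage markers at 3165 to 4467 CPM against 501 to 572 CPM, and the 5 NK cell markers at 15.5 to 35.7 CPM against 0.828 to 1.67 CPM. The 5 neutrophil markers summed to 482 to 802 CPM against 15.6 to 71.7 CPM and the 5 fibroblast markers to 4321 to 10312 CPM against 1304 to 1560 CPM, with 5 and 2 of them called higher. The 5 endothelial markers summed to 628 to 700 CPM against 921 to 1199 CPM, with 1 called lower. The part of these cell types in the member values was not tested. In a whole piece of heart, more cells of a type and more RNA per cell cannot be told apart.

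Members were therefore also set against Ptprc, as the difference of log2(CPM + 0.25) between a member and Ptprc in the same heart. Of 40 members with a mean of at least 0.5 CPM at D15, 4 rose relative to Ptprc and 33 fell (exact permutation test of 4 against 4 hearts, two-sided, p = 0.0286, the smallest this design allows, adjusted over all genes to 0.029). Since Ptprc itself rose, most genes fell relative to it, 96.4% of the 15473 genes at that level, and 0.872% rose. The many genes that fell bring the adjusted p down to 0.029, so it gives no support to the members that rose. The median difference was -1.74 over the 40 members and -3.95 over those genes. The 4 members that rose were Tnfrsf9, with a difference of 2.46 on the log2 scale, Tnfsf11 with 1.85, Tnfsf14 with 0.85 and Ltb with 0.62. All but Ltb had under 10 reads in every control and reached the mean of 0.5 CPM only through the EAM hearts. Tnfrsf9 against Ptprc ran from -3.87 to -2.40 in EAM and from -6.09 to -5.22 in control hearts. Most members rose by less than the 3.92 by which Ptprc itself differed: Tnf differed from it by -1.04, Tnfrsf1b by -0.91, Tnfrsf1a by -2.36 and Ltbr by -3.07. With a pseudocount of 1, 1 member, Tnfrsf9, rose relative to Ptprc (0.93) and 35 fell: Tnfsf14 turned to -0.36, and Ltb at 0.15 and Tnfsf11 at 0.034 no longer passed. The 8 T cell markers differed from Ptprc by -0.87 to 0.44.

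**Figure D4:**
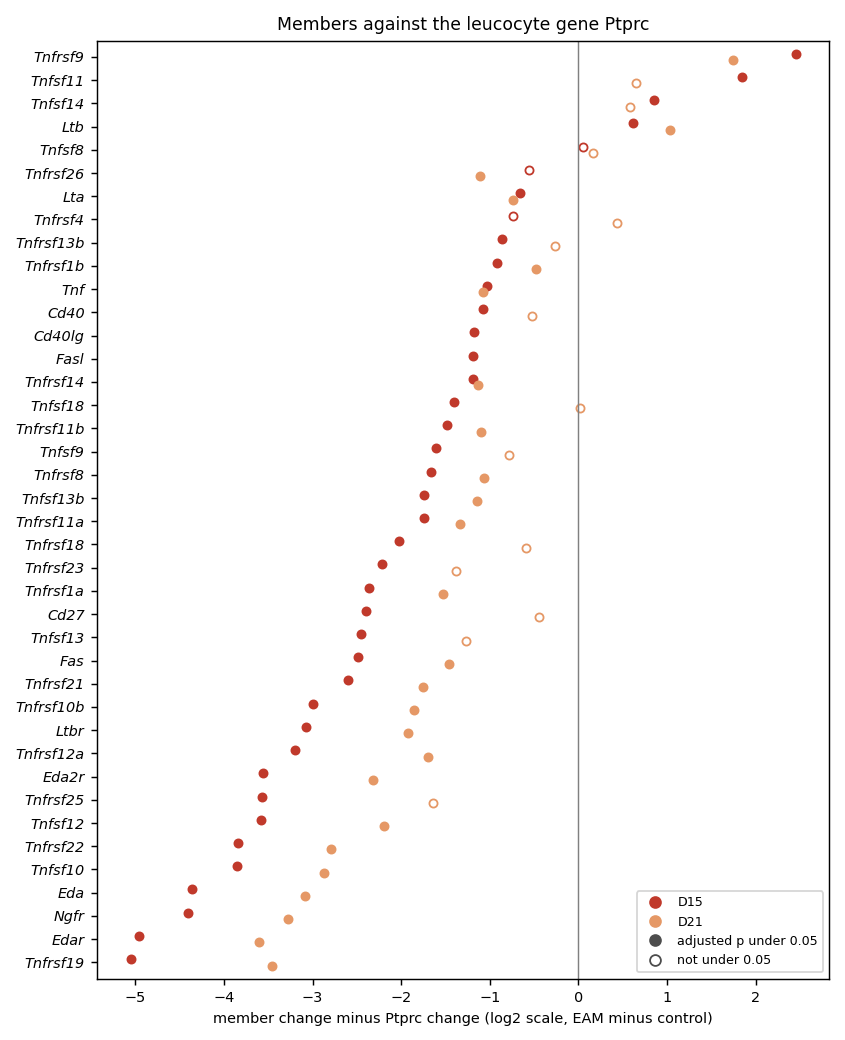
Change of each member minus the change of Ptprc on the log2 scale at D15 (red) and D21 (orange), filled where the exact permutation test gave an adjusted p under 0.05. Tnfrsf9, Tnfsf11, Tnfsf14 and Ltb lie right of 0 at D15, at 2.46, 1.85, 0.85 and 0.62, of which with a pseudocount of 1 Tnfsf14 turned to -0.36 and Tnfrsf9 alone still passed.

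The 29 listed ligand and receptor pairs were compared within each heart as log2 of the ligand over the receptor, with the same pseudocount. At D15, 23 pairs had both partners at a mean of at least 0.5 CPM. The ratio rose in 10 pairs and fell in 6 (exact permutation test, 4 against 4 hearts, adjusted p = 0.041). Of the 10, 7 have a ligand with under 10 reads in every control, which the EAM hearts alone brought over 0.5 CPM and whose control ratio the pseudocount largely sets; the other 3 were Tnf over Tnfrsf1a, Ltb over Ltbr and Eda over Edar. Of the 6 that fell, 1 has such a partner, Tnfrsf9. With a pseudocount of 1, 8 rose and 8 fell. The 23 pairs share genes, so they are not independent.

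Ltb outran its receptor Ltbr. The ratio ran from -5.13 to -4.39 in controls and from -1.32 to -0.96 in EAM hearts, a difference of 3.69, or 3.18 with a pseudocount of 1. Tnfsf14 over Ltbr differed by 3.92, or by 2.67 with a pseudocount of 1. But Tnfsf14 had under 10 reads in every control, so the EAM hearts alone brought it in and the pseudocount largely sets its control level. Tnfsf11 differed by 3.59 over its signalling receptor Tnfrsf11a and by 3.34 over its soluble decoy Tnfrsf11b (osteoprotegerin). Tnfsf11 had 1 read in the 4 controls, so the EAM hearts alone brought these pairs in and the pseudocount sets both values. For TNF, the ratios over its receptors are set side by side. Tnf over Tnfrsf1a ran from -5.79 to -5.14 in controls and from -4.32 to -3.88 in EAM hearts, a rise of 1.32, while Tnf over Tnfrsf1b ran from -4.23 to -3.58 and from -4.36 to -3.39, a difference of -0.12 that overlapped (exact permutation test, 4 against 4 hearts, adjusted p = 0.69). Lta differed by 1.71 over Tnfrsf1a and by 0.26 over Tnfrsf1b, and the latter value turned to -0.92 with a pseudocount of 1. Cd40lg over Cd40 gave -0.10, or -1.29 with a pseudocount of 1, but Cd40lg had 1 read in the 4 controls, so the pseudocount sets both values. By reads, Cd40lg had the ratio of 110 (19.4 to 4366) given above, and Cd40 the log2 fold change of 2.97. Fasl over Fas rose by 1.29 and turned to -0.06 with a pseudocount of 1.

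In other pairs the receptor moved further than the ligand. Tnfsf9 over Tnfrsf9 fell from 0.84 to 1.34 in controls to -3.42 to -2.09 in EAM hearts, a difference of -4.07. Tnfrsf9 had under 10 reads in every control, so the EAM hearts alone brought this pair in and the pseudocount largely sets its control ratio. Tnfsf13 (APRIL) over Tnfrsf13b differed by -1.59 and Tnfsf13b over Tnfrsf13b by -0.87. Tnfsf10 overlapped between groups, at 48.9, 33.5, 48.4 and 41.9 CPM in EAM and 44.6, 36.2, 41.5 and 40.5 CPM in control hearts, with a log2 fold change of 0.12 ± 0.12. Its ratio fell by 2.36 over the decoy Tnfrsf11b, by 1.63 over the decoy Tnfrsf23 and by 0.85 over the signalling receptor Tnfrsf10b. Over Tnfrsf22, another decoy and a neighbour of Tnfrsf23 on chromosome 7, it differed by -0.01. By the paper, reads mapping to several loci were set apart, which may lower the counts of these neighbouring paralogs. In the ectodysplasin pair, Eda over Edar rose by 0.59, with Edar further down than Eda, and no longer passed with a pseudocount of 1 (0.28).

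**Figure D5:**
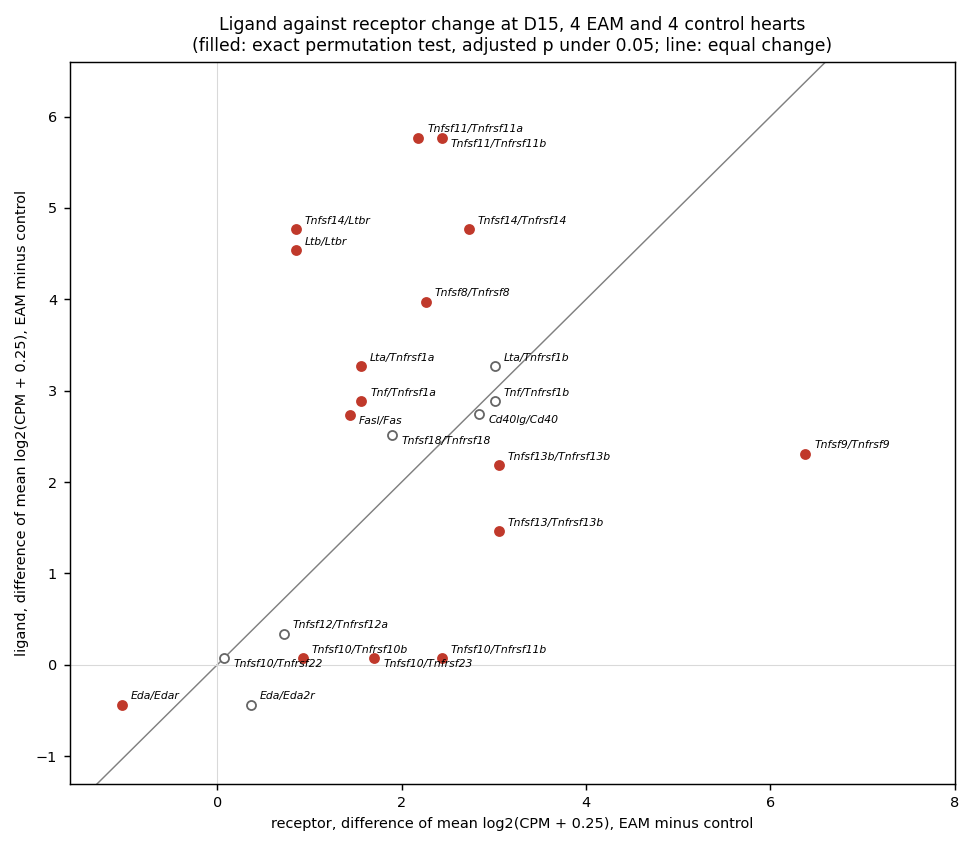
Change of the ligand against change of the receptor for 23 pairs at D15, each as a difference of means of log2(CPM + 0.25) over 4 EAM and 4 control hearts, filled where the exact permutation test of their ratio gave an adjusted p under 0.05. Pairs above the line of equal change, such as Ltb with Ltbr, gained ligand relative to receptor, and Tnfsf9 with Tnfrsf9 lies farthest below it. Tnfrsf9 had under 10 reads in every control.

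At D21, when the study followed the later course of the disease, 8 of 34 members tested were called higher and 2 lower, against 4.3% of all 15266 genes higher and 1.3% lower. Of the 8, Tnfrsf4 and Tnfrsf9 had under 10 reads in every control and passed the filter only through the EAM hearts, and of the other 32 members tested 6 were called higher and 2 lower. The median log2 fold change was 1.18 over these 32 and -0.01 over all genes. The 8 were Ltb, Tnfsf9, Tnfrsf1b, Tnfrsf4, Cd27, Tnfrsf9, Tnfrsf13b and Tnfrsf18, and the 2 were Tnfrsf19 and Edar. All 10 were also called at D15, which is 100% of the calls of D21 and 31.2% of the 32 calls of D15. The 4 EAM hearts lay above all controls for 19 members, against 17.8% of all genes, and below all controls for 5, against 18.3% of all genes. Of the 7 costimulatory receptors 4 were called, Tnfrsf4 and Tnfrsf9 among them, and of the 7 death domain receptors 0 higher and 1 lower. Traf1 was the 1 gene called of the 28 downstream genes, with a log2 fold change of 3.22 ± 0.48.

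The 4 hearts of D21 differed widely. Ltb stood at 32.6, 16, 7.62 and 49.3 CPM in EAM hearts 1 to 4 against 1.98, 1.68, 1.44 and 2.05 CPM, and Tnfrsf9 at 9.51, 7.25, 1.14 and 23.1 CPM against 0.152, 0.096, 0.0875 and 0.307 CPM. Tnfrsf1b stood at 159, 84.9, 54.6 and 164 CPM against 31.2, 24.3, 24.6 and 33.4 CPM. The order of the hearts was shared: of the 30 members that rose at D15, heart 4 was the highest for 26 and heart 3 the lowest for 28, and Ptprc followed with 149, 96.3, 48.9 and 228 CPM. How many of all genes shared this order was not counted. Tnf stood at 5.47, 3.49, 2.47 and 11.4 CPM against 2.54, 1.63, 1.62 and 1.64 CPM, so EAM heart 3 lay among the controls, and Tnf was not called (log2 fold change 1.66 ± 0.48, adjusted p = 0.030). Tnfsf11 stood at 4.58, 2.18, 0.134 and 14.0 CPM against 0.102, 0.048, 0.219 and 0.0512 CPM, and it had too few reads for the test. Marker sums moved at D21 as well. Monocyte and macrophage markers summed to 1257 to 4260 CPM in EAM and 436 to 710 CPM in control hearts, with 6 of 8 called higher, T cell markers to 22.4 to 86.7 CPM against 3.94 to 5.12 CPM, with 8 of 8, and fibroblast markers to 2885 to 8388 CPM against 1491 to 1807 CPM, with 2 of 5. NK cell markers summed to 5.48 to 36.2 CPM against 1.2 to 2.15 CPM, with 3 of 4 tested called higher, and neutrophil markers to 95.9 to 351 CPM against 11.1 to 85.4 CPM, with 1 of 5. Cardiomyocyte markers summed to 14200, 19773, 26964 and 11174 CPM in EAM hearts 1 to 4 against 23010 to 24832 CPM, with 0 of 6 called, so 3 of the 4 lay below every control. Endothelial markers summed to 651 to 1054 CPM against 1134 to 1336 CPM, with 0 of 5 called. Their part in the member values was not tested.

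The other members called at D21 are given here heart by heart. Tnfsf9 stood at 2.17, 2.29, 1.27 and 3.14 CPM against 0.661, 0.528, 0.350 and 0.666 CPM. Tnfrsf4 stood at 4.43, 2.51, 1.0 and 5.19 CPM against 0.203, 0.144, 0.262 and 0.154 CPM. Cd27 stood at 3.01, 2.34, 1.14 and 2.48 CPM against 0.254, 0.528, 0.525 and 0.256 CPM. In each, even EAM heart 3 lay above every control. Tnfrsf13b stood at 16.1, 8.39, 5.81 and 19.2 CPM against 2.24, 2.40, 1.84 and 3.33 CPM, and Tnfrsf18 at 3.65, 1.74, 1.2 and 3.59 CPM against 0.762, 0.336, 0.437 and 0.512 CPM. Edar stood at 0.394, 0.599, 0.802 and 0.331 CPM against 1.22, 1.73, 1.62 and 1.64 CPM (log2 fold change -1.55 ± 0.27), and Tnfrsf19 at 1.58, 2.40, 3.01 and 1.49 CPM against 4.63, 4.18, 4.77 and 4.92 CPM (-1.12 ± 0.22). Heart 3, the lowest for Ptprc, was here the closest to the controls.

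The calls of D21 depended on single hearts. Without EAM heart 3, 26 members were called higher and 2 lower, with 11% of all genes higher and 3.6% lower, and without EAM heart 4, 6 higher and 0 lower, with 2.52% and 0.979% of all genes. Leaving out EAM heart 1, EAM heart 2 or any 1 of the 4 controls left 0 called in edgeR's test, and 0 to 51 of all genes higher and 10 to 58 lower, with 24 to 31 of the members higher and 5 or 6 lower at an unadjusted p under 0.05, where 21% to 24.9% of all genes were higher and 16.3% to 20.3% lower. DESeq2 called 20 higher and 2 lower, beside 1364 of all 15266 genes higher and 369 lower. In limma-voom 0 members were called, beside 80 of all genes higher and 135 lower. The replicate number was also used as a block, though no label pairs these mice. With it, edgeR's test called 8 higher and 0 lower, beside 645 and 155 of all 15266 genes. Tnfsf14 was gained (adjusted p = 0.0029), and Cd27 (0.013), Edar (0.014) and Tnfrsf19 (0.019) were lost. Their log2 fold changes were 2.47, -1.54 and -1.14 with the block and 2.52, -1.55 and -1.12 without it.

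Relative to Ptprc, 2 of 38 members rose at D21 and 23 fell (exact permutation test, 4 against 4 hearts, adjusted over all genes to p = 0.031), as 0.67% of 15368 genes rose and 90.6% fell. Here too the adjusted p is set by the many genes that fell and gives no support to the members that rose. The 2 were Tnfrsf9, with 1.75, and Ltb, with 1.03, and with a pseudocount of 1 Ltb still passed at 0.67 and Tnfrsf9 no longer did at 0.49. The 8 T cell markers differed from Ptprc by -0.084 to 1.17 at D21, with a median of 0.73, a range that holds the value of Ltb. Over the 4 pairs of same-numbered hearts 0 passed, since an exact sign-flip test of 4 pairs cannot go below p = 0.125. No pair passed at D21 (smallest adjusted p = 0.075 by exact permutation test, 4 against 4 hearts), and Ltb over Ltbr differed by 2.95, with -4.68 to -4.43 in controls and -2.67 to -0.77 in EAM hearts. The unadjusted p of this pair in that test was 0.0286, the smallest possible, and the adjustment over 21 pairs brought it to 0.075. Without EAM heart 3, 13 of the pairs passed, 7 up and 6 down. Without EAM heart 1, 2 or 4 or any 1 control, 0 members passed against Ptprc, the smallest adjusted p then lying between 0.0543 and 0.0857 (exact permutation test, 3 against 4 hearts). No pair passed at D10 either, of 18 compared (smallest adjusted p = 0.26 by exact permutation test, 4 against 4 hearts). With so few hearts, the lack of passing pairs on these days does not show that the ratios were unchanged.

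Whether the effect of EAM changed between days was tested in the fit of all 24 libraries. From D10 to D15 the effect grew for 5 of 43 members and shrank for 0, against 5.3% of all genes greater and 7.56% smaller. The 5 were Tnfsf9, with a change of 2.43 ± 0.45 on the log2 scale, Tnfrsf1b with 2.04 ± 0.49, Tnfsf13b with 1.83 ± 0.52, Tnfrsf11a with 1.57 ± 0.40 and Tnfrsf21 with 1.25 ± 0.26. At D10, Tnfsf9 stood at 1.99, 1.59, 1.11 and 0.792 CPM in EAM and 0.913, 0.922, 1.97 and 0.727 CPM in control hearts, and Tnfrsf21 at 37.3, 21.1, 26.8 and 22.8 CPM against 29.7, 24.5, 25.9 and 21.7 CPM. Both overlapped on that day and were clear of the controls at D15. Tnfrsf1b stood at 130, 34.2, 49.6 and 35.9 CPM against 39.6, 30.3, 29.3 and 26.4 CPM at D10. Without EAM heart 1 of D10, 20 members were called greater, beside 12.4% of all genes greater and 9.81% smaller, while leaving out other single libraries gave 3 to 9 greater. Tnfsf9, Tnfrsf1b and Tnfrsf21 were called in all 24 fits that left out 1 library, Tnfrsf11a in 18 and Tnfsf13b in 6.

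From D15 to D21 the effect was lower for 36 of 43 members, with a median change of -0.67 over the members and -0.00066 over all genes on the log2 scale. But 0 members passed the limits in edgeR's quasi-likelihood test, DESeq2, limma-voom or the likelihood ratio test, against 2.84% of all genes greater and 0.968% smaller in the first of these. At an unadjusted p under 0.05, 6 members were smaller and 0 greater, against 17.4% and 23.5% of all genes. Leaving out 1 library gave 5 to 14 smaller, with 14 without EAM heart 4 of D21 (22.5% of all genes) and 11 without EAM heart 1 of D10 (21.1%), and total counts in place of TMM gave 11 (24.8%). The lowest adjusted p values were those of Tnfrsf22 (0.038), Tnfsf10 (0.042) and Tnfrsf26 (0.049), with changes of -0.54 ± 0.19, -0.58 ± 0.21 and -2.04 ± 0.76 on the log2 scale. Of the 28 downstream genes, Tnfaip3 was called smaller, with -1.80 ± 0.45.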

How the data were processed

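RNA of 24 hearts had been sequenced, from 4 EAM and 4 control mice on each of 3 days. The authors aligned the reads to GRCm38 with HISAT2 2.0.4, removed duplicates with Picard and counted reads per Ensembl gene with featureCounts, and they deposited raw counts without normalization. Removal of duplicates can lower the counts of abundant genes, and the strand setting of the counting was not given in the sources used here. Tnfsf12 and Tnfsf13 overlap Tnfsfm13 on their own strand and Tnfsf13os on the other. Tnfrsf9, Cd27, Tnfsf9, Tnfrsf18, Tnfrsf13b, Fas, Eda, Lta and Ltb also overlap other genes. By the paper, reads spanning several features were set apart, so these members may have lost reads. For overlaps on the other strand this depends on the strand setting. Groups and replicate numbers came from the sample labels, the tables of single samples and of all samples differed in 0 cells, and 92 spike-in rows with 0 reads were left out.

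From these counts, genes that reached 10 reads in 4 or more libraries of a comparison were scaled by TMM and compared with the quasi-likelihood test of edgeR 4.0.16 in R 4.3.3, on the 8 libraries of each day or, for differences of the EAM effect between days, on all 24. A gene was called at a Benjamini-Hochberg FDR under 0.01 over all genes tested together with a change of 2-fold or more. The script was tested on simulated data. Ratios of members within a heart were compared on log2(CPM + 0.25) by exact two-sided permutation tests with Benjamini-Hochberg adjustment (over the pairs compared, and for ratios to Ptprc over every gene averaging 0.5 CPM or more, which gave the same counts of members as adjustment over the members), whose smallest p is 0.0286 with 4 against 4 hearts. Exon lengths came from GENCODE M21. DESeq2 1.42.0, limma-voom (limma 3.58.1), the likelihood ratio test, other scalings, filters and limits, all 12 controls, the fit of all 24 libraries, the replicate block and leaving out each library were the alternatives; edgeR's earlier form of the quasi-likelihood test was added after seeing the data. Tables and figures were made with pandas 2.3.3, scipy 1.17.1, numpy 2.4.6 and matplotlib 3.10.9 (Python 3.11.15).

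The members, lists and pairs were chosen with earlier results of these data known. Values in every heart are given for Tnf, Lta, Ltb, Tnfrsf1a, Tnfrsf1b, Ltbr, Cd40, Cd40lg, Fas and Fasl, for the 8 members with the largest increases and all members with decreases among those called at D15 or D21, for members called between days, and for members of ratios singled out; of the downstream genes, the 5 largest called at D15 and any called lower are named. Members outside this rule that are given by heart, or named among the lowest adjusted p, were chosen after their values were seen. Same-numbered EAM and control libraries deviated together in all 4 pairs at D21 (correlations of 0.101, 0.171, 0.307 and 0.248 over genes) and in 2 of 4 at D10. At D15 the correlations ran from -0.105 to 0.0426. The numbers were therefore treated as pairs at D21 only, but no label pairs these mice. Differently numbered libraries were not compared, so whether the numbers mark true pairs was not tested. That the 4 hearts of a group are separate animals follows from the study's design.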

Additional observations from a re-analysis of the deposited data

Results flagged for a closer look

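Of 144 groups of 4 hearts checked over 24 members, 15 had 1 heart far from the other 3 by Dixon's criterion. Chance meets it in about 1 in 20 groups of continuous values, but 4 of the 15 lay in control groups with at most 3 reads in any heart, where ties or near ties meet it readily, and the members are not independent of each other. EAM heart 1 of D10 accounted for 7 of the 15. It stood at 14.7 CPM for Tnf (next highest 2.84), 4.95 CPM for Tnfsf11 (0.557), 12 CPM for Tnfsf14 (1.67), 130 CPM for Tnfrsf1b (49.6), 25.1 CPM for Cd40 (6.96), 5.13 CPM for Tnfrsf9 (1.0) and 1.68 CPM for Tnfrsf18 (0.612). Ptprc was also highest in this heart, at 194 CPM.

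The other 8 were control hearts. At D10, heart 3 stood at 1.97 CPM for Tnfsf9 and heart 4 at 0.132 CPM for Tnfsf11, among few reads. At D15, heart 1 stood at 0.0521 CPM for Cd40lg and 0.104 CPM for Fasl, and heart 2 at 0.059 CPM for Tnfsf11, where the remaining controls had 0 reads. Heart 4 of D15 stood at 15.4 CPM for Fas. At D21, heart 1 stood at 2.54 CPM for Tnf and heart 2 at 18.1 CPM for Tnfrsf21, the lowest of its group.

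The effect of EAM differed between D10 and D15 in edgeR's test of the difference for Tnfsf9 (2.43 on the log2 scale, adjusted p = 0.0017), Tnfsf13b (1.83, adjusted p = 0.0084), Tnfrsf1b (2.04, adjusted p = 0.0036), Tnfrsf11a (1.57, adjusted p = 0.0044) and Tnfrsf21 (1.25, adjusted p = 0.0021).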

How the results depend on the processing

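At D15 the count of members called kept within 1.5 times its value of 32 under every alternative, and at D10 it was 0 except with all 12 controls, where it was 8. At D21, against 10, DESeq2, the likelihood ratio test and an FDR limit of 0.05 each called 22, the fit of all 24 libraries 25, all 12 controls 21, limma-voom 0 (25 higher and 6 lower at an unadjusted p under 0.05, with 24.1% and 23.3% of all genes), and leaving out 1 library 0 to 28. Over all genes, 657 were higher and 199 lower in the main test, 1364 and 369 in DESeq2, and 1356 and 412 in the likelihood ratio test. The FDR limit of 0.05 gave 1431 and 456, the fit of all 24 libraries 1567 and 475, and all 12 controls 1588 and 355. For the difference from D10 to D15, against 5, DESeq2, an FDR limit of 0.05 and the replicate block each called 12, limma-voom 10, the likelihood ratio test 11, and leaving out 1 library 3 to 20. Over all genes, 865 were greater and 1234 smaller in the main test, 1316 and 1255 in DESeq2, and 1560 and 1678 at the FDR limit of 0.05. The replicate block gave 1335 and 1141, limma-voom 826 and 1196, and the likelihood ratio test 1249 and 1427. For the difference from D15 to D21, against 0, an FDR limit of 0.05 called 1, Tnfrsf26, and leaving out 1 library 0 to 1. Besides that 12, the replicate block gave 31 at D15, with Tnfrsf10b lost, 8 at D21, 0 at D10 and 0 from D15 to D21, where 16 members instead of 6 were smaller at an unadjusted p under 0.05 (21% of all genes). Of pair ratios, 16 passed at D15 and 0 in the sign-flip test over pairs of hearts with the replicate block, whose smallest p is 0.125; at D21, against 0, leaving out 1 library gave 0 to 13. Of ratios to Ptprc, 37 passed at D15 and 25 at D21, and 0 on both days with the replicate block; at D21 leaving out 1 library gave 0 to 24. With a pseudocount of 1 these reversed at D15: Lta to Tnfrsf1b (-0.92), Fasl to Fas (-0.062), Tnfsf8 to Ptprc (-1.36) and Tnfsf14 to Ptprc (-0.36); at D21, Tnfsf8 to Ptprc reversed (-0.86). These members had few reads in controls, and a larger pseudocount lowers their change by construction; the cause of the other shifts was not tested. Depth limits Cd70, Tnfsf4, Tnfrsf13c and Tnfrsf17, which were under the read filter in the 8 libraries of each day. Without the filter Tnfsf4 and Tnfrsf13c were called at D15, and Tnfsf4 was also called at D15 and D21 in the fit of all 24 libraries and in 5 fits of D15 without 1 library, Tnfrsf13c in 1.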

Other observations

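Over the whole family, the summed level of the 45 members was 987 to 1169 CPM in EAM hearts of D15 and 348 to 380 CPM in controls of that day, 429 to 910 CPM against 365 to 456 CPM at D10, and 447 to 1028 CPM against 357 to 423 CPM at D21. The receptors made up most of these sums, at 812 to 993 CPM in EAM hearts of D15 against 175 to 194 CPM for the ligands. Among receptors not yet given by heart, Tnfrsf26, a mouse receptor without a known ligand, stood at 12.6, 21.4, 9.41 and 12 CPM in EAM and 1.2, 1.24, 1.19 and 0.707 CPM in control hearts at D15 (log2 fold change 3.71 ± 0.30), and at 4.48, 3.21, 1.40 and 7.45 CPM against 1.22, 1.73, 1.14 and 1.33 CPM at D21. Tnfrsf11b, the soluble decoy of Tnfsf11, stood at 4.74, 5.29, 4.47 and 4.67 CPM against 0.729, 1.12, 0.466 and 0.530 CPM at D15 (2.79 ± 0.22), without overlap.

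Of the ectodysplasin and nerve branch, Eda and Ngfr were lower in every EAM heart than in any control at D21 and were not called, while 18.3% of all genes lay below the controls without overlap. Eda stood at 5.03, 6.37, 6.48 and 4.97 CPM in EAM and 9.05, 9.41, 9.36 and 10.1 CPM in control hearts (log2 fold change -0.72 ± 0.13, adjusted p = 0.0071), under the 2-fold limit. Ngfr, the low-affinity nerve growth factor receptor, stood at 2.37, 2.07, 2.34 and 3.53 CPM against 4.32, 3.89, 5.69 and 6.35 CPM (-0.95 ± 0.24, adjusted p = 0.019). Eda2r, of the same branch, overlapped between groups, at 8.57, 8.99, 5.21 and 10.1 CPM against 7.52, 6.67, 8.84 and 7.83 CPM (0.12 ± 0.21).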
